A study of Saccharomyces cerevisiae with 10 samples.

Results

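The mRNAs of 10 yeast cell wall protein genes were followed after transcription was shut off in rpb1-1/caf1 cells, a mutant of Saccharomyces cerevisiae. They were chosen by systematic name from the 6717 yeast genes of the deposited table and fell into 4 PIR genes, PIR1 (YKL164C), HSP150 (YJL159W, also called PIR2), PIR3 (YKL163W) and CIS3 (YJL158C), and 6 genes of proteins made with a glycolipid anchor, GAS1 (YMR307W), CWP1 (YKL096W), CWP2 (YKL096W-A), CCW12 (YLR110C), SED1 (YDR077W) and TIR1 (YER011W). All 10 were listed in the table and all 10 passed the minimum for testing.

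The study asked how loss of Caf1, a deadenylase of the Ccr4-Not complex, changes mRNA decay. A mid-log culture was grown at the permissive temperature and shifted to 37 °C, which inactivates the temperature-sensitive Rpb1 subunit of RNA polymerase II made by rpb1-1. Total RNA was taken before the shift (0 min), at 3, 6, 8 and 10 min after it, and then at 15, 20, 30, 45 and 60 min, with a fixed amount of ERCC spike-in RNA added, and paired-end RNA-seq gave the 1 library per time point used here, although the design text speaks of a biological duplicate, which was not analysed here. Every library carries both the rpb1-1 and the caf1 allele, so no group here has an active Caf1 or a wild-type polymerase, and the heat shift itself is shared by all libraries after 0 min. The rpb1-1 strain with CAF1, the comparison strain of the study, was not analysed here. The labels give the strain in 2 ways, as yJC1257 with the genotype rpb1-1/caf1 and as yJC244 with rpb1-1 alone, and they name a kit for mRNA and one for total RNA without saying which was used. With 1 library per time point, no value at a single time has a replicate error, and only trends over the 10 libraries were tested.

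The yeast cell wall is a mesh of beta-1,3-glucan, beta-1,6-glucan and chitin coated with mannoproteins. PIR proteins (proteins with internal repeats) are bound directly to beta-1,3-glucan through a glutamine of the repeat, whereas most other wall proteins are first tethered to the membrane by a GPI anchor and then moved onto beta-1,6-glucan. Wall damage and heat activate the cell wall integrity pathway, in which the kinase Slt2 activates Rlm1, a transcription factor of the MADS-box family, and PIR genes and CWP1 are among its known targets. After an RNA polymerase II shut-off, the level of an mRNA over time is normally read as decay.

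The repeat that names the PIR genes is shown first, because these 4 mRNAs share it and still took different courses. In translated coding sequences the repeat core occurred 11 times in HSP150, 8 times in PIR1, 8 times in PIR3 and once in CIS3, and CWP1, CWP2 and TIR1 held 1 match each. The lines below give the first core of each PIR gene and the bases after it, 57 bases in all, from RefSeq's R64 reference, read along the coding strand with the core in capitals. They lie at chrXI:142559-142615 (minus strand, PIR1), chrX:120674-120730 (plus strand, HSP150), chrXI:144611-144667 (plus strand, PIR3) and chrX:122688-122744 (minus strand, CIS3).
PIR1: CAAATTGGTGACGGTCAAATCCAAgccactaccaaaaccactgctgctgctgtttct
HSP150: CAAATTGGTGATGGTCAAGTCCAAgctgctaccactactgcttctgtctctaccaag
PIR3: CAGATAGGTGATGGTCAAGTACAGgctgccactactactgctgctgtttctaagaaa
CIS3: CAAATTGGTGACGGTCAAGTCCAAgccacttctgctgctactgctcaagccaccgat
HSP150 and PIR3 were identical at 46 of the 57 bases, the most of the 6 pairs, and PIR1 and PIR3 at 35 of the 57, the fewest. Despite the repeats, 0 of the 100-base stretches of any of the 10 coding sequences occurred in another gene, so exact reads of the length used here would not be shared between them.

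A search for Rlm1 sites on both strands of the 500 bases before the coding start found 1 each in HSP150, PIR3, CWP1 and SED1, which is 4 of the 10 genes against 1.81% of 6006 genes. These 4 are shown because they include PIR3 and CWP1, whose levels stood above the 0 min level in 7 of the 9 later libraries. HSP150 and SED1 stood above it in 2 and 3 of the 9, and CWP1 was called as falling over the full course. Each line gives the site in capitals with 25 bases on either side, from R64, plus strand, at chrX:120201-120260 for HSP150, chrXI:144096-144155 for PIR3, chrXI:260721-260780 for CWP1 and chrIV:600288-600347 for SED1. The sites begin 223, 280, 386 and 480 bases before the coding start in this order.
HSP150: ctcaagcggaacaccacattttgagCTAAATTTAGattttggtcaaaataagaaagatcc
PIR3: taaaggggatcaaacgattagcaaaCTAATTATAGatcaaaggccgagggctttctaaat
CWP1: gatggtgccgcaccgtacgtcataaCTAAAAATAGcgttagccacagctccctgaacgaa
SED1: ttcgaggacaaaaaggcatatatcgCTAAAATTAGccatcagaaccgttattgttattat
A match of these letters is a description of the sequence and not a measured binding site.

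FPKM, a fragment number normalised for transcript length and for library size, was put on a common scale with a factor per library, its total spike-in FPKM over that of the 0 min library, and levels below are these spike-in-scaled FPKM unless stated. The factors lay between 1.047 and 1.423 after 0 min and were largest at 60 min. Fragments per library, estimated from the steps between low FPKM values, ranged from 2240000 at 15 min to 4900000 at 45 min. POP2, the systematic listing of CAF1, was at 0.887 at 0 min and at 0 at 60 min. HIS3, which replaces the gene in this strain by the methods, was listed at 0 in every library. That marker was thus not seen in these libraries, and why was not tested. Among 5203 mRNAs that started at 10 FPKM or more, the median level at 60 min was 0.352 of the 0 min level. The 45 min library stood apart, since 75.8% of the 4456 genes that were under 0.7 of their 0 min level at 60 min were higher at 45 min than at 30 min (44.3% at equal total FPKM), and 8 of the 10 wall mRNAs lay between their 20 and 30 min levels there. Its part in the results was not tested beyond leaving it out.

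Before the shift, all of the 10 mRNAs except TIR1 ranked from 7th to 1060th in abundance among the 6717 yeast genes. CCW12, a small mannoprotein needed for normal wall strength, was the 7th most abundant yeast gene of the table at 5991 FPKM, and SED1, a structural mannoprotein known for stress and stationary phase, ranked 10th at 4629 FPKM. HSP150 ranked 28th (2545 FPKM), PIR1 122nd (888 FPKM) and CWP2 124th (879 FPKM). GAS1, which elongates beta-1,3-glucan chains and ranked 307th, had 358 FPKM. PIR3 had 182 FPKM, CIS3 124 FPKM and CWP1 110 FPKM. TIR1, a mannoprotein known from cold and anaerobic growth, ranked 5943rd with 1.68 FPKM. PIR1 and CWP2 were thus close neighbours in this order, 1.81% and 4.97% being their counting errors, and their order is not resolved.

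**Figure D1:**
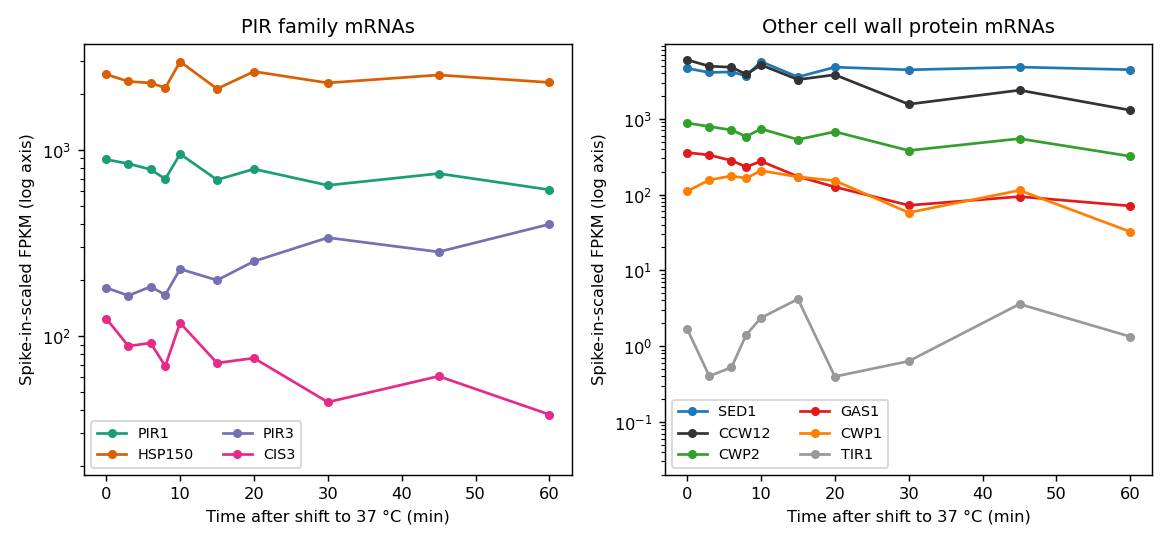
Spike-in-scaled FPKM (log axis) of the 10 cell wall protein mRNAs against time after the shift in min, 1 point per library, with the 4 PIR genes on the left and the other 6 on the right. PIR3 climbed to 399 FPKM at 60 min while CIS3 fell to 37.9 FPKM, and TIR1 stayed at or below 4.17 FPKM.

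Within the PIR family, PIR3 increased, CIS3 decreased, and PIR1 and HSP150 had no called trend. PIR3 had 182, 165, 184, 167, 229, 200, 252, 338, 283 and 399 FPKM in the 10 libraries in order of time, from 0 to 60 min. All 6 libraries from 10 min on were above every library of 0 to 8 min. At 60 min its level was 2.19 times that at 0 min, above 99.4% of the 5203 mRNAs, and the fitted slope was 1.22 ± 0.25 on the log2 scale over 60 min (SE, 10 libraries, limma, adjusted p = 0.00248). CIS3, the PIR protein with a single repeat core, had 124, 88.4, 91.9, 69.0, 118, 71.7, 76.2, 44.2, 60.9 and 37.9 FPKM in the same order. Every later library lay below 0 min, the slope was -1.39 ± 0.32 (adjusted p = 0.00476), and counting error alone was between 6.22% and 9.76% of each value.

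HSP150, the most abundant PIR mRNA and a secreted heat shock glycoprotein, had 2545, 2330, 2289, 2153, 2978, 2128, 2635, 2289, 2525 and 2302 FPKM over the 10 libraries. Its levels after 0 min lay on both sides of the starting level, higher in 2 of 9 libraries, and ended at 0.905 of it. The slope was -0.03 ± 0.23, with a 95% interval of -0.52 to 0.47 and an adjusted p of 0.922. PIR1 had 888, 843, 785, 698, 951, 691, 789, 645, 746 and 611 FPKM, which left 0.688 at 60 min. Its slope of -0.42 ± 0.23 was not called (95% interval -0.92 to 0.08, adjusted p = 0.133). Both mRNAs stayed above the median of all mRNAs in each library after 0 min, and at 60 min they stood above 92.5% (HSP150) and 84.9% (PIR1) of the 5203 mRNAs. Fewer cells and less RNA per cell cannot be told apart in such bulk samples, since the spike-in fixes the level per RNA sample and not per cell.

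Among the anchored proteins, GAS1 fell furthest. It had 358, 332, 280, 232, 275, 173, 126, 72.0, 93.8 and 70.7 FPKM from 0 to 60 min, and the libraries from 15 min on were all below those of 0 to 10 min. The slope was -2.48 ± 0.39 (adjusted p = 0.000891), and at 60 min 0.198 of the starting level was left. CCW12 went the same way with 5991, 4932, 4785, 3853, 5123, 3283, 3803, 1555, 2380 and 1296 FPKM and a slope of -2.07 ± 0.34 (adjusted p = 0.00102). CWP2, a short mannoprotein known for resistance to low pH, had 879, 788, 710, 582, 735, 531, 674, 380, 546 and 320 FPKM. Every later value lay below 0 min and the slope was -1.19 ± 0.29 (adjusted p = 0.00607), but without the 60 min library it was -1.06 and no longer called (adjusted p = 0.0720).

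SED1 had no called trend. Its levels were 4629, 4077, 4147, 3677, 5680, 3558, 4792, 4422, 4802 and 4440 FPKM, so that 3 of the 9 later libraries were above 0 min and 6 below. The slope was 0.11 ± 0.25 with a 95% interval of -0.45 to 0.67 (adjusted p = 0.727), and 0.959 of the starting level was present at 60 min. From 10 min on SED1 was the most abundant of the 10 mRNAs, at 4422 FPKM against 1555 FPKM for CCW12 at 30 min, although CCW12 was ahead at 0 min with 5991 FPKM against 4629 FPKM.

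CWP1, a mannoprotein known from the birth scar of daughter cells, stood above its starting level up to 20 min and at 45 min, and below it at 30 and 60 min. It had 110, 156, 176, 164, 207, 171, 152, 57.7, 113 and 32.3 FPKM. At 3, 6, 8, 10, 15 and 20 min these levels were 1.41, 1.59, 1.49, 1.88, 1.55 and 1.38 times that at 0 min, and each was above at least 96.6% of the 5203 mRNAs, while at 30, 45 and 60 min they were 0.523, 1.03 and 0.293 times it. Counting error was at most 9.45% of a value. The slope over the full course was -1.97 ± 0.51 (adjusted p = 0.00775). Fitted to 0 to 20 min only and still stated per 60 min, the slope was 1.00 (limma, adjusted p = 0.382). It was -1.12 without the 60 min library (limma, adjusted p = 0.189), so the call rests on the 60 min library. The squared time term, which measures a bend, was -2.75 ± 1.72 (adjusted p = 0.260) and was called when the 30 min library was left out (-5.39, adjusted p = 0.0205). With 1 library per time, the early excess of CWP1 has no test of its own.

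TIR1 was close to the floor of detection. It had 1.68, 0.402, 0.522, 1.41, 2.35, 4.17, 0.396, 0.631, 3.58 and 1.33 FPKM, which stands for an estimated 43.0 fragments over all 10 libraries and between 0.994 and 12.9 in any of them. The slope of 0.43 ± 0.64 was not called (95% interval -0.98 to 1.83, adjusted p = 0.584) and was -0.04 without the 45 min library. No course of TIR1 was detectable at this depth.

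**Figure D2:**
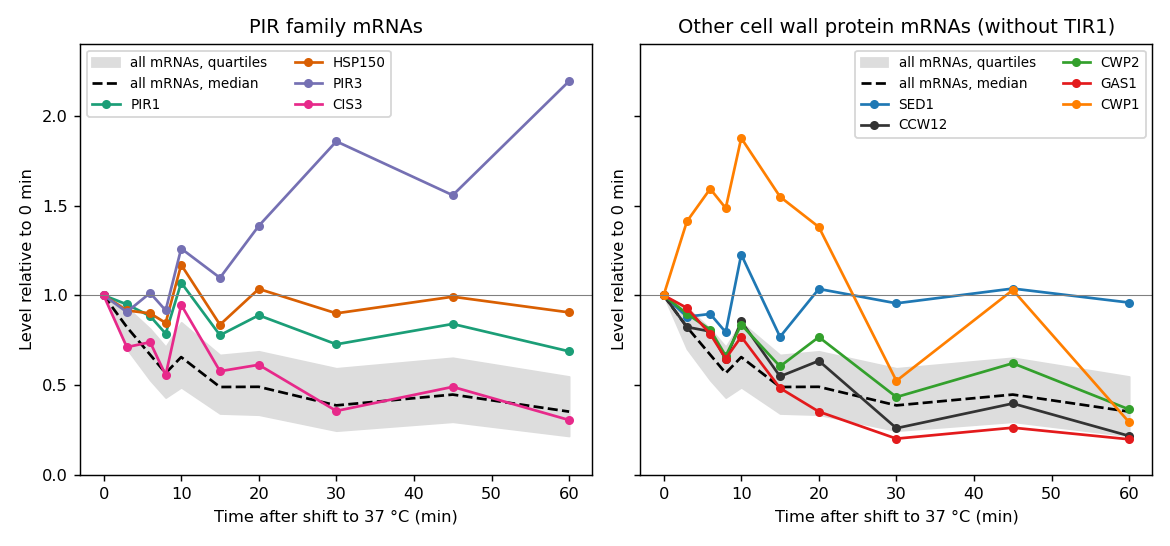
Spike-in-scaled level relative to 0 min against time in min for the 4 PIR mRNAs (left) and 5 other wall mRNAs (right, TIR1 left out), with the median (dashed) and quartiles (grey) of the 5203 mRNAs that started at 10 FPKM or more. PIR3 reached 2.19 and CWP1 peaked at 1.88 at 10 min, while GAS1 ended at 0.198, under the lower quartile of 0.216.

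Of the 10 mRNAs, 5 fell (CIS3, GAS1, CWP1, CWP2 and CCW12) and 1 rose (PIR3). Over all 6045 genes tested, 52.8% fell and 1.60% rose by the same rule (adjusted p under 0.05), so the number that fell is close to that background. The other 4 (PIR1, HSP150, SED1 and TIR1) were not called. The median slope of the 10 was -0.80 on the log2 scale over 60 min and that of the 9 without TIR1 -1.19, on either side of the -1.02 over all genes tested. Placed among all slopes, PIR3 stood above 98.8% of genes, SED1 above 91.0%, HSP150 above 88.1% and PIR1 above 75.6%. TIR1 stood above 95.3%, but with a slope of 0.43 ± 0.64 and levels close to the floor of detection. CWP2 and CIS3 stood above 42.5% and 34.0%, and CWP1, CCW12 and GAS1 above 16.9%, 14.7% and 8.30%.

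The members stood higher at 10 min than at 8 min. At 10 min all 10 were above the median of all mRNAs and 6 were above their own 0 min level, whereas at 8 min only CWP1 was above it. The median of all mRNAs was also higher at 10 min, 0.656 against 0.566 at 8 min, and the spike-in factor there was 1.049 against 1.25. As deposited, without that factor, GAS1 had 291 FPKM at 8 min and 288 FPKM at 10 min, and each other member was higher at 10 min. CWP2 had 731 and 771 FPKM and SED1 4615 and 5957 FPKM. How much of the members' step came with that factor was not tested. At 60 min the median level of the 9 mRNAs that started at 10 FPKM or more (all except TIR1) was 0.364 of that at 0 min, close to the 0.352 of the 5203 mRNAs. With TIR1, which is near the floor, it was 0.526.

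The bend of the courses was called for 1 of the 10, GAS1, whose squared term was 3.46 ± 0.99 on the log2 scale (adjusted p = 0.0408), a fall that slowed with time. Such an upward bend was called for 15.9% of all genes tested. The GAS1 call was lost when any of the 0, 3, 6, 8, 15, 20 or 30 min libraries was left out, with squared terms of 2.43 to 4.97 over all leave-one-outs.

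Which of these mRNAs rise depends on the yardstick. The median log2 change of all genes between 60 and 0 min was -1.50 with spike-in scaling, -0.995 as deposited and -0.58 at equal total FPKM of the yeast genes. At equal total FPKM, 4 of the 10 rose (PIR3 2.05, SED1 0.95 with adjusted p = 0.00546, HSP150 0.81 with adjusted p = 0.00584 and PIR1 0.42 with adjusted p = 0.0437) and 2 fell (GAS1 and CCW12), where 11.8% of all genes tested rose and 24.7% fell. As deposited, the 5 that fell still did, and PIR3 and SED1 rose, SED1 by 0.51 (adjusted p = 0.0456), where 4.91% of all genes tested rose and 40.1% fell. PIR3 was thus called as rising and GAS1 and CCW12 as falling under all 3 of these scalings, and the sign for PIR1 and HSP150 turned from below 0 with spike-in scaling to above 0 at equal total FPKM. Over 0 to 20 min with spike-in scaling, 1 of the 10 was called, GAS1, which fell, where 51.2% of all genes tested fell and 2.21% rose. PIR3 had a slope of 1.54 in that fit, stated per 60 min (limma, adjusted p = 0.0905). The 10 genes together took 2.66% of all yeast FPKM at 60 min, against 2.31% at 0 min.

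**Figure D3:**
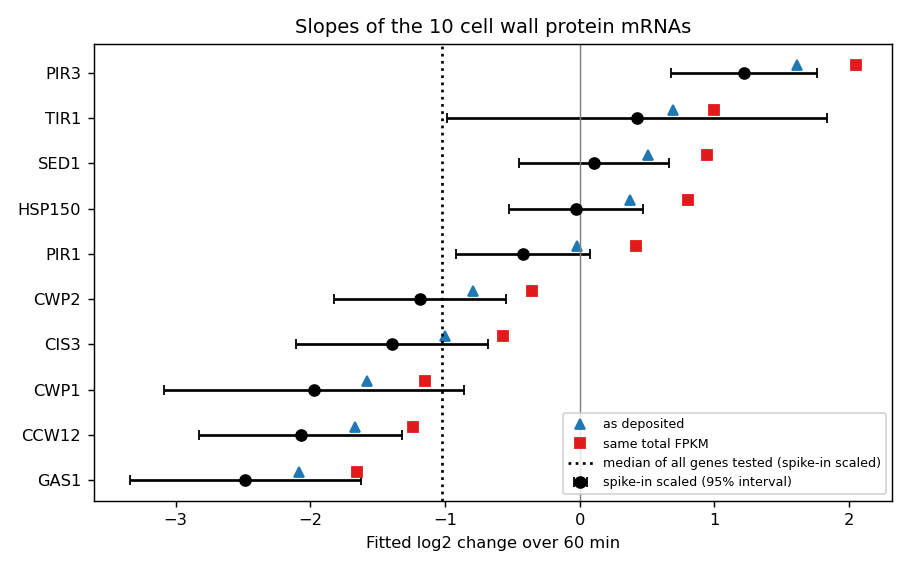
Fitted log2 change over 60 min for each of the 10 mRNAs with spike-in scaling (circles with 95% intervals), as deposited (triangles) and at equal total FPKM (squares), with the median of all genes tested as a dotted line at -1.02. GAS1, CCW12, CWP1, CIS3 and CWP2 lie left of that line with spike-in scaling, and PIR1 and HSP150 lie left of 0 with spike-in scaling and right of it at equal total FPKM.

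Half-lives were read from an exponential decay fixed at 1 at 0 min, kept where the mean absolute residual was at most 0.14 and the half-life at most 60 min. By this rule 4 of the 10 had a half-life, against 55.8% of the 5203 mRNAs fitted. GAS1 had 16.6 ± 1.76 min, CCW12 23.0 ± 3.22 min, CIS3 26.6 ± 5.57 min and CWP2 36.4 ± 6.45 min (SE of the fit to the 9 later libraries, relative to 0 min). The median half-life of the 2901 mRNAs that passed was 15.9 min, with quartiles of 9.20 and 27.1 min. Neighbours in the order of the 4 half-lives differed by less than 2 standard errors of their difference, with the fits taken as independent. Taken from FPKM as deposited they were 22.5 min for GAS1, 33.2 min for CCW12 and 42.0 min for CIS3, and CWP2 was past the limit at 64.5 min. For the other 6 no half-life is given.

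Among these genes 3 pairs are neighbours in R64, and the ratio of their FPKM within a library needs no scaling. PIR1 (chrXI:141794-142819, minus strand) and PIR3 (chrXI:144401-145378, plus strand) are transcribed away from each other with 1581 bases between their coding regions. The ratio of PIR1 to PIR3 was 4.88, 5.11, 4.26, 4.19, 4.15, 3.46, 3.13, 1.91, 2.63 and 1.53 from 0 to 60 min. PIR1 thus remained the more abundant of the pair in every library, by a margin that shrank. The log2 ratio decreased with time (Pearson r = -0.93, permutation p = 0.00066, Spearman rho = -0.98, permutation p = 6e-05, 10 libraries), with adjusted p-values over the 3 pairs of 0.00099 for r and 0.00018 for rho. Without the 45 and 60 min libraries, the 2 farthest from the median time, r was -0.98 (permutation p = 0.00025).

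HSP150 (chrX:120449-121690, plus strand) and CIS3 (chrX:122265-122948, minus strand) point towards each other with 574 bases between. The ratio of HSP150 to CIS3 was 20.5, 26.4, 24.9, 31.2, 25.3, 29.7, 34.6, 51.8, 41.5 and 60.7. It was higher in every later library than at 0 min (r = 0.91, permutation p = 0.00049, adjusted p = 0.00099; rho = 0.90, permutation p = 0.00091, adjusted p = 0.00136), and r was 0.93 without the 45 and 60 min libraries (permutation p = 0.00098).

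CWP1 (chrXI:261132-261851) and CWP2 (chrXI:259253-259531) follow each other on the plus strand with 1600 bases between. The ratio of CWP1 to CWP2 was 0.125, 0.197, 0.247, 0.281, 0.281, 0.322, 0.226, 0.152, 0.208 and 0.101. It was highest at 15 min and lowest at 60 min, with no straight trend over the course (r = -0.49, permutation p = 0.148, adjusted p = 0.148; rho = -0.16, permutation p = 0.656, adjusted p = 0.656). Without 45 and 60 min r was 0.01 (permutation p = 0.987), and without 0 min it was -0.76 (permutation test, adjusted p = 0.0197). The course of PIR3 thus differed from that of PIR1, and the course of CIS3 from that of HSP150, by a test of the ratio itself, whereas CWP1 and CWP2 did not pass that test. How often other pairs of genes would pass was not tested, so this says nothing particular to neighbours. The members were also chosen with earlier results of these data known.

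**Figure D4:**
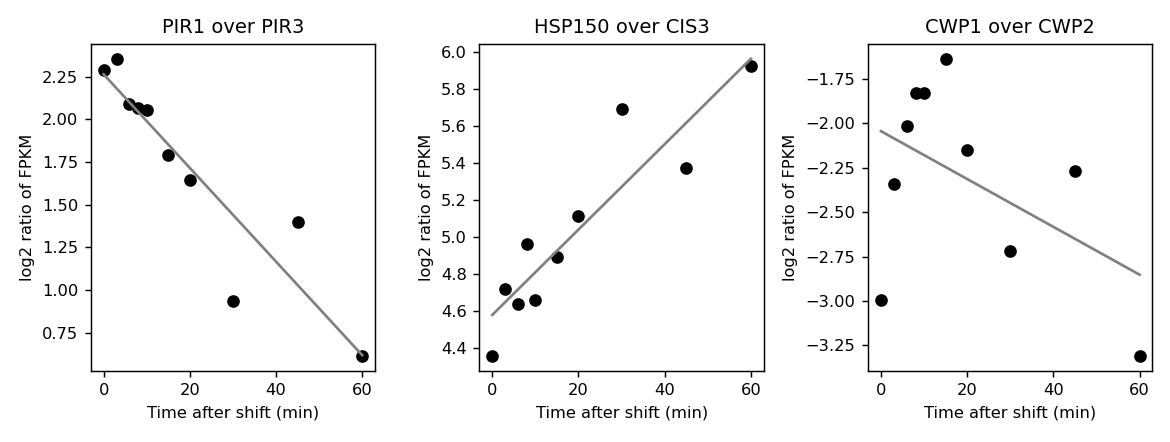
Log2 ratio of deposited FPKM between neighbouring genes in each of the 10 libraries against time in min, with a least squares line. PIR1 over PIR3 was lower in each library from 15 min on than in any before (r = -0.93), HSP150 over CIS3 climbed (r = 0.91), and CWP1 over CWP2 peaked at 15 min.

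Genes with and without the Rlm1 sites shown above were set side by side. Of the 4 members with a site, PIR3 rose, CWP1 fell over the full course, and HSP150 and SED1 were not called. Of the 6 without one, 4 fell and 2 were not called. The median slopes were 0.04 with a site and -1.29 without, which is a description of 10 genes whose courses were known. Over all tested genes with such a site in 500 bases, 34 of 98 fell and 2 rose, with a median of -0.55 against -1.02 for all genes. With the 4 members left out, 33 of 94 fell and 1 rose, with a median of -0.58. Over all genes tested, 52.8% fell and 1.60% rose. In 1000 bases CCW12, which fell, also had a site, and 5 of the 10 genes held one against 3.10% of genes.

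Other motifs of wall and stress factors were searched in the same 500 bases on both strands, and no match of one overlapped a match of another in these genes. The SCB box of Swi4 (CACGAAA or CGCGAAA) was found in GAS1, CWP1, CWP2 and CCW12, which is 4 of 10 genes against 12.5% of all. None of the PIR genes held the box. The STRE of Msn2 and Msn4 (AGGGG) was found in 7 of 10 against 34.1%, in all except GAS1, CWP2 and TIR1. A heat shock element (TTC and GAA with 2 bases between) was found in PIR1 and CIS3, which is 2 of 10 against 21.2%.

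The study grouped codons as optimal (OPT) and non-optimal (NON-OPT) in its reporter mRNAs. Here 9 OPT and 9 NON-OPT codons were taken from positions where a pair of the study's oligonucleotide sequences differ. Other codons were not counted. The study ranked genes by published optimality definitions instead, so this share is not its measure. The OPT share was 100% in CWP2 and in CCW12, 95.6% in TIR1, 89.9% in HSP150, 89.5% in CIS3 and 85.0% in SED1. It was 82.2% in PIR1, 80.0% in PIR3, 76.0% in GAS1 and 70.2% in CWP1, against a median of 52.3% over 6008 genes. By this share all 10 were thus in the upper part of the genome, from the 87.9th percentile (CWP1) up. Of the mRNAs that fell, CWP2 and CCW12 lay at the top of this range, CWP1 and GAS1 at the bottom and CIS3 between them.

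The rest of the wall gene list, 95 genes by role, is the setting for these 10. Of the 89 that were tested 31 fell, 1 rose and 57 were not called, and the median slope was -0.42, where 52.8% of all genes tested fell and 1.60% rose with a median of -1.02. Genes for glucan synthesis and remodelling had 11 of 28 falling and 1 rising. The 1 that rose was GAS2 (YLR343W), a relative of GAS1 known from spore wall formation, with 9.72, 46.0 and 47.9 FPKM at 0, 30 and 60 min and a slope of 2.13 ± 0.33 (adjusted p = 0.000874), while GAS1 had 358, 72.0 and 70.7 FPKM at the same times. The most negative slopes were those of SCW10, a glucanase-like wall protein (-3.07 ± 0.45, adjusted p = 0.000748), UTR2, which links chitin to glucan (-3.00 ± 0.42, adjusted p = 0.000717), and DSE2, a daughter cell protein of cell separation (-2.24 ± 0.47, adjusted p = 0.00286).

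Chitin synthesis and septum genes had 7 of 14 falling, and other mannoproteins 6 of 24, with none rising in either. Genes of cell wall integrity signalling had 7 of 23 falling and none rising. SLT2, the kinase of the pathway, had a slope of 0.15 ± 0.36 (adjusted p = 0.730) and RLM1 itself -0.30 ± 0.56 (adjusted p = 0.653). Of 9 other wall genes with an Rlm1 site 1 fell, BCK1 (-1.28 ± 0.40, adjusted p = 0.0186), and 8 were not called, among them CCW14, PST1, GAS5, BGL2 and MKK1. SLT2, RLM1 and these genes were named after their values were seen.

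**Figure D5:**
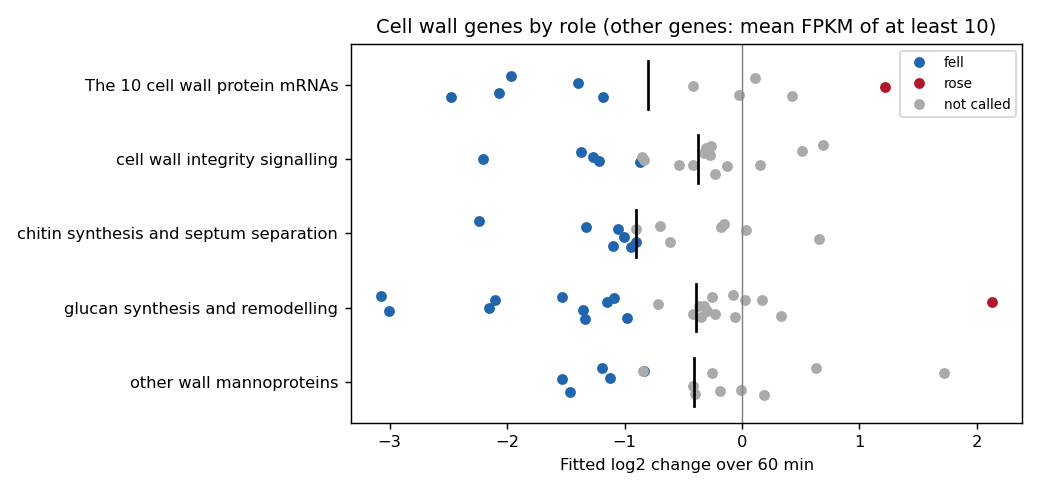
Fitted log2 change over 60 min of the 10 cell wall protein mRNAs and of other wall genes by role (those with a mean scaled FPKM of at least 10), 1 point per gene, coloured by call, with a bar at each group's median. PIR3 at 1.22 and GAS2 at 2.13 are the points called as rising, and the lowest points are SCW10 and UTR2 at -3.07 and -3.00.

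The mRNAs with the course most like each member were sought among 3150 genes with at least 10 FPKM in every library, by the Pearson correlation of log2 levels over the 10 libraries, which all share the libraries' shifts. PIR3 was most like UFD4, a ubiquitin ligase (r = 0.99), which was at 1.74 of its 0 min level at 60 min. CWP1 was most like HXT2, a hexose transporter (r = 0.99, 0.413 at 60 min), and GAS1 most like HHT1, a histone H3 gene (r = 0.997, 0.150 at 60 min). PIR1 was most like SCP160, CCW12 most like ARC1 and CWP2 most like ARO8 (r = 0.99 each). CIS3 was closest to YNL134C (r = 0.98), SED1 to YDR222W (r = 0.97) and HSP150 to PAN1 (r = 0.95). Among the members themselves, HSP150 and SED1 were each other's closest (r = 0.95), as were CCW12 and CWP2 (r = 0.97), and PIR3 had no close partner (highest r = 0.39, with SED1). TIR1 was too low to be compared.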

How the data were processed

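RNA of rpb1-1/caf1 yeast was measured at 10 time points, 1 library each. By the submitters' processing notes the reads were handled with CASAVA, Bowtie 0.12.7 and Cufflinks 1.3.0 on sacCer2, and the authors deposited FPKM for 6717 yeast genes and 92 ERCC spike-ins, of which 73 were detected. These FPKM were not scaled to the spike-ins. Each library was scaled by its total spike-in FPKM over that at 0 min. Slopes and squared terms over time were fitted by limma 3.58.1 (R 4.3.3) on log2(scaled FPKM + 1) for the 6045 genes with a mean of at least 1, so fold changes of low genes are understated, with Benjamini-Hochberg adjustment over all of them and a threshold of 0.05. A p-value here measures scatter around a trend over single libraries. Half-lives came from scipy 1.17.1, and their errors leave out that of the 0 min library. Ratios of neighbours used 100000 permutations of time, two-sided. Between 93.4% and 98.8% of low values per library lay within 0.1 of a whole estimated fragment. These fragment numbers rest on estimated lengths and were used for counting errors only. Sequences and coordinates are those of R64, found by systematic name for 6025 of the 6717 yeast genes, and not of the alignment build. All 10 members were named, and from the other wall genes the 3 largest slopes in each direction past the threshold with a mean of at least 10 FPKM, of which 1 was positive. The members and gene lists were chosen with earlier results of these data known.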

Additional observations from a re-analysis of the deposited data

How the results depend on the processing

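The limits are these: 1 library per time, a common yardstick from spike-ins, and few fragments for TIR1, CIS3, CWP1 and CWP2. No paired analysis was possible because there is 1 genotype and no replicate number shared between groups. Other pseudocounts, filters and the median spike-in ratio kept every member's slope call (TIR1 was not tested at a mean of at least 10 FPKM), as did a fit over named protein-coding genes only that was chosen after seeing the data. As deposited, SED1 rose (0.51) and HSP150 turned to 0.37, so 2 members rose. At equal total FPKM PIR1 (0.42), HSP150 (0.81) and SED1 (0.95) rose, CIS3 (-0.57), CWP1 (-1.15) and CWP2 (-0.35) were no longer called, 4 members rose and 2 fell, and the members' median at 60 min was 1.00 (0.692 without TIR1, 0.669 for all mRNAs). Over all genes, 298 rose as deposited and 721 rose and 1504 fell at equal total FPKM. Over 0 to 20 min, with 7 libraries, only GAS1 was called (1 fell, 0 rose) while 51.2% of all genes tested fell and 2.21% rose. Slopes of that fit, stated per 60 min, were 1.54 for PIR3, -1.66 for CIS3, 1.00 for CWP1, -1.41 for CWP2, -2.06 for CCW12 and 0.13 for HSP150. Against log2 time CWP1 was -1.34 and not called.

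Squared terms changed sign for PIR1 as deposited (-0.16) and at equal total FPKM (-0.60), where CIS3 (-0.00138) and CWP2 (-0.29) also did. Chosen after seeing the data, r for CWP1 over CWP2 without 45 and 60 min was 0.00770. The half-life of CIS3 was 37.8 min and that of CWP2 47.4 min with a free start, and a line through logarithms gave 42.4, 24.0, 50.4 and 29.0 min for CIS3, GAS1, CWP2 and CCW12. The causes were not tested.

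Leaving out 1 library at a time gave slopes of -0.0775 to 0.0437 for HSP150, -2.44 to -1.12 for CWP1, -1.43 to -1.06 for CWP2 and -0.0399 to 0.934 for TIR1, 3 to 5 members that fell, 1 that rose and 54 to 108 genes that rose (54 without 45 min). PIR3 ranged from 1.15 to 1.35, always called. Squared terms ranged from -0.0719 to 1.24 (PIR1), -0.33 to 0.32 (HSP150), -1.76 to 0.0136 (PIR3), -0.12 to 2.72 (CIS3), 2.43 to 4.97 (GAS1), -5.39 to -0.80 (CWP1), -0.35 to 2.99 (CWP2), -0.43 to 3.11 (CCW12), -0.43 to 0.52 (SED1) and -2.40 to 2.74 (TIR1), with 0 to 1 members called and 188 to 1990 genes bent upward. For CWP1 over CWP2 r lay between -0.765 and -0.0400.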
